A study of Homo sapiens with 6 samples.

Results

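LCMT2, MEOX1, PPP1R10 and SPINK5 are 4 of the 44591 genes counted in A2780, a human ovarian cancer cell line, and in the samples treated with recombinant human CRMP2 (r-CRMP2) their RNA was left at 7.64% to 9.45% of the untreated level. The rows were found by gene name, and each name occurred once. The genes had been picked from this same comparison: after EGR1, they showed the largest falls among genes that passed both call thresholds, had a mean of at least 50 normalized counts and kept the treated libraries apart from the untreated ones. Their falls are therefore given as a description, without a test. All 4 were among the 16222 genes that passed edgeR's filter on low counts.

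Polyadenylated RNA was sequenced from 3 untreated samples and 3 samples that had received r-CRMP2 at 40 ng/ml, all labelled as wild type and as the 48 h time point and grown in DMEM with fetal bovine serum. CRMP2, the product of DPYSL2, is a microtubule-associated protein. All p-values are from edgeR's quasi-likelihood fit over every gene tested, adjusted by Benjamini-Hochberg. The labels do not say whether the 3 samples of a group came from separate cultures, so the p-values measure the spread between these samples, which may be technical. No vehicle is named for the untreated samples. The libraries held between 21888530 and 25711353 counts.

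The 4 genes act in different pathways. PPP1R10 encodes PNUTS, a nuclear subunit that holds protein phosphatase 1 in a complex with TOX4 and WDR82 and takes part in the slowing and termination of RNA polymerase II after the polyadenylation site. LCMT2, also called TYW4, encodes the methyltransferase of the late steps of wybutosine synthesis, a modified guanosine beside the anticodon of phenylalanine tRNA that helps to hold the reading frame. MEOX1 encodes a homeodomain transcription factor of the early somite. SPINK5 encodes LEKTI, a secreted inhibitor of serine proteases that restrains the kallikreins KLK5, KLK7 and KLK14 in the outer epidermis, and its loss causes Netherton syndrome.

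The sequences upstream of the start differed in base composition. RefSeq sequence (GRCh38.p14) was used for LCMT2, PPP1R10 and SPINK5. Over the 250 bases before the start, GC content was 54.0% for LCMT2, 61.2% for PPP1R10 and 41.6% for SPINK5, against a median of 58.0% over 27305 promoters. The same windows held 14, 23 and 3 CpG dinucleotides, against a median of 11. The 249 bases upstream of PPP1R10 are shown because this gene had the highest level of the 4 and lies beside MRPS18B, which starts on the other strand, and the 51 bases between LCMT2 and ADAL are shown because both genes start there. For SPINK5, 30 bases around its TATA box are shown. All are printed 5′ to 3′ on the strand of the gene. Capitals mark matches to the GC box (GGGCGG), the CCAAT box and the TATA box (TATAAA) in PPP1R10, to the TATA box in SPINK5, and in LCMT2 to an ETS core (CCGGAAG) followed by a CRE half-site (TGACG). Each motif was searched on both strands.
PPP1R10, chr6:30617245-30617493, minus strand: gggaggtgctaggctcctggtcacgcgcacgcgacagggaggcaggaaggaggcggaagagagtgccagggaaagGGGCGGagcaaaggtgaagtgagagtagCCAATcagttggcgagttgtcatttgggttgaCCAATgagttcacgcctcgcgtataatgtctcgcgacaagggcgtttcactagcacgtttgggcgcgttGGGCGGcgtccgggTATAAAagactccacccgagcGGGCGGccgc
LCMT2, chr15:43330606-43330656, minus strand: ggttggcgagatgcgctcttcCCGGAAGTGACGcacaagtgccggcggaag
SPINK5 TATA box, chr5:148063935-148063964, plus strand: gtgtcaccagtgcTTTATAAAagtaaactg

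PPP1R10 had a TATA box match on its own strand, beginning 32 bases before the start, and SPINK5 had one beginning 30 bases before the start that overlaps a match on the other strand at 32 bases. A TATA box match was found in 11.1% of the 27305 promoters. LCMT2 had none, and its ETS core and CRE half-site began 62 and 55 bases before the start, letters that 8.82% and 21.7% of all promoters held. PPP1R10 had 3 GC boxes and 2 CCAAT boxes, which 42.3% and 33.0% of promoters held at least once. The core of the hypoxia response element, searched as ACGTG, was found once each in LCMT2 and PPP1R10 and in 18.7% of promoters, and searched as GCGTG it was found 3 times in PPP1R10 and in 31.9%. None of the 3 windows held an EGR motif (GCGTGGGCG, 0.71% of promoters), an E-box (CACGTG, which includes ACGTG, 6.49%), a full CRE (TGACGTCA, which includes the half-site, 1.77%), an AP-1 motif (TGANTCA, 6.60%) or a CArG box (1.14%). No motif searched was found in all 3 windows. These matches are of letters alone and say nothing of which factors were bound.

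PPP1R10 (chromosome 6, 30568177 to 30585084, minus strand, hg19 as deposited) was the most abundant of the 4. Its counts were 2882, 2441 and 2980 in untreated replicates 1, 2 and 3, and 234, 135 and 159 in r-CRMP2 replicates 1, 2 and 3. In CPM, the counts scaled by TMM-normalized library size, this was 104, 99.5 and 109 CPM in the untreated libraries and 11.0, 6.82 and 6.92 CPM in the r-CRMP2 libraries. The lowest untreated library was 9.08 times the highest r-CRMP2 library, and replicate 1 stood above the other r-CRMP2 libraries. The mean went from 104 ± 4.74 CPM to 8.23 ± 2.36 CPM, where ± is the SD over the 3 libraries of a group, here and in all later values. The log2 fold change (log2FC, r-CRMP2 over untreated) was -3.66, with a standard error (SE, from the spread of log2 CPM between libraries) of 0.23.

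LCMT2 (chromosome 15, 43619974 to 43622820, minus strand, hg19 as deposited) is listed with a length of 2847 bases, equal to its whole interval, so its deposited annotation held no intron. Its counts were 502, 495 and 596 in untreated replicates 1, 2 and 3 and 39, 35 and 26 in r-CRMP2 replicates 1, 2 and 3. In CPM, the untreated libraries were at 18.0, 20.2 and 21.8 and the r-CRMP2 libraries at 1.83, 1.77 and 1.13. The groups lay far apart, with the lowest untreated library 9.89 times the highest r-CRMP2 library, and r-CRMP2 replicate 3 was the lowest of all. The mean went from 20.0 ± 1.87 CPM to 1.58 ± 0.385 CPM, which gave a log2FC of -3.67 with SE 0.22.

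MEOX1 (chromosome 17, 41717757 to 41739262, minus strand, hg19 as deposited) was the gene with the fewest counts after treatment. It had 106, 109 and 137 counts in untreated replicates 1, 2 and 3, and 6, 5 and 11 counts in r-CRMP2 replicates 1, 2 and 3. This was 3.81, 4.44 and 5.01 CPM in the untreated libraries and 0.281, 0.253 and 0.479 CPM in the r-CRMP2 libraries. The groups did not overlap, and r-CRMP2 replicate 3 stood above the other treated libraries, unlike in the other 3 genes. The mean went from 4.42 ± 0.599 CPM to 0.338 ± 0.123 CPM, which gave a log2FC of -3.67 with SE 0.26. Counting error alone was 30.2% to 44.7% of the value in each r-CRMP2 library, and the spread between them was 36.5%.

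SPINK5 (chromosome 5, 147443535 to 147516925, plus strand, hg19 as deposited) had 144, 155 and 177 counts in untreated replicates 1, 2 and 3 and 14, 12 and 10 counts in r-CRMP2 replicates 1, 2 and 3. In CPM this was 5.18, 6.32 and 6.47 without r-CRMP2 and 0.655, 0.607 and 0.435 with it. The lowest untreated library was 7.90 times the highest r-CRMP2 library. The mean went from 5.99 ± 0.706 CPM to 0.566 ± 0.115 CPM, which gave a log2FC of -3.40 with SE 0.19. The GENCODE release 29 basic set lists transcripts with 28 to 34 exons for SPINK5, 20 for PPP1R10, 2 to 4 for MEOX1 and 1 or 2 for LCMT2. In a bulk sample, fewer cells with a transcript and less transcript per cell cannot be told apart, and this holds for all 4 genes.

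**Figure D1:**
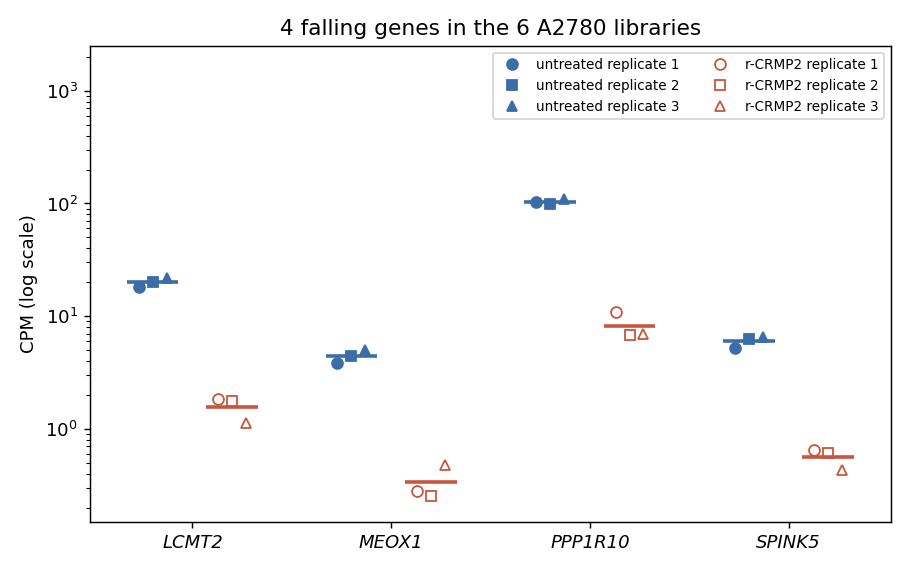
CPM of the 4 genes in each library, on a log axis. Filled blue symbols are the 3 untreated libraries, open red symbols are the 3 r-CRMP2 libraries, and lines are the group means. For each gene the groups lie 7.90 to 9.89 times apart at their nearest libraries.

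All 3 r-CRMP2 libraries were below all 3 untreated libraries for the 4 genes, which their choice required. Over all genes tested, 33.3% had this pattern and 30.9% its opposite. Likewise all 4 passed both thresholds, an adjusted p-value under 0.05 and a log2FC below -1, as did 8.86% of all genes tested, while 5.12% passed both in the rising direction. Among the untreated libraries, replicate 3 was the highest for each of the 4 genes. Replicate 1 was the lowest for LCMT2, MEOX1 and SPINK5, and replicate 2 for PPP1R10. In the r-CRMP2 libraries, replicate 1 was the highest for LCMT2, PPP1R10 and SPINK5 and replicate 3 for MEOX1.

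After treatment the spread between libraries was wide for PPP1R10, compared with other genes of its level. Among untreated libraries, the coefficient of variation was 4.56% for PPP1R10, 9.37% for LCMT2, 11.8% for SPINK5 and 13.5% for MEOX1. Among r-CRMP2 libraries it was 28.6% for PPP1R10, 24.4% for LCMT2, 20.4% for SPINK5 and 36.5% for MEOX1. For PPP1R10 counting error was 6.54% to 8.61% in those libraries, and its SD of log2 CPM was above that of 98.7% of 1666 genes of like level (within 0.5 log2 units of its mean CPM). For LCMT2, MEOX1 and SPINK5 the same share was 67.0%, 29.5% and 24.8%.

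Levels of different genes were compared per length, with the deposited TPM values. Untreated cells held 55.2 ± 2.48 TPM of PPP1R10, 17.1 ± 1.79 TPM of LCMT2, 4.61 ± 0.669 TPM of MEOX1 and 3.81 ± 0.498 TPM of SPINK5. PPP1R10 and LCMT2 stood apart from each other and from the rest in every untreated library, whereas the ranges of MEOX1 and SPINK5 overlapped. With r-CRMP2 the levels were 3.51 ± 1.15 TPM for PPP1R10, 1.08 ± 0.266 TPM for LCMT2, 0.287 ± 0.0618 TPM for SPINK5 and 0.282 ± 0.106 TPM for MEOX1. The order was kept except that MEOX1 and SPINK5, which again overlapped, changed places. PPP1R10 went from above 83.2% to above 31.7% of the genes tested, and LCMT2 from above 58.3% to above 14.5%. MEOX1 went from above 30.2% to above 3.83%, and SPINK5 from above 27.0% to above 3.96%. TPM carries no TMM scaling, and on this scale the log2 ratios of the means were -3.97 for PPP1R10, -3.99 for LCMT2, -4.03 for MEOX1 and -3.73 for SPINK5.

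Ranked by fold change alone, without regard to level, LCMT2, MEOX1, PPP1R10 and SPINK5 were the 9th, 10th, 11th and 20th largest falls among the 16222 genes tested. Under the rule that picked them they followed EGR1, which had a log2FC of -4.55. Just outside were LINC00909 (log2 fold change -3.01), ZNF594 (-2.96) and TIGD5 (-2.91). SPINK5, at -3.40, was the last gene inside.

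**Figure D2:**
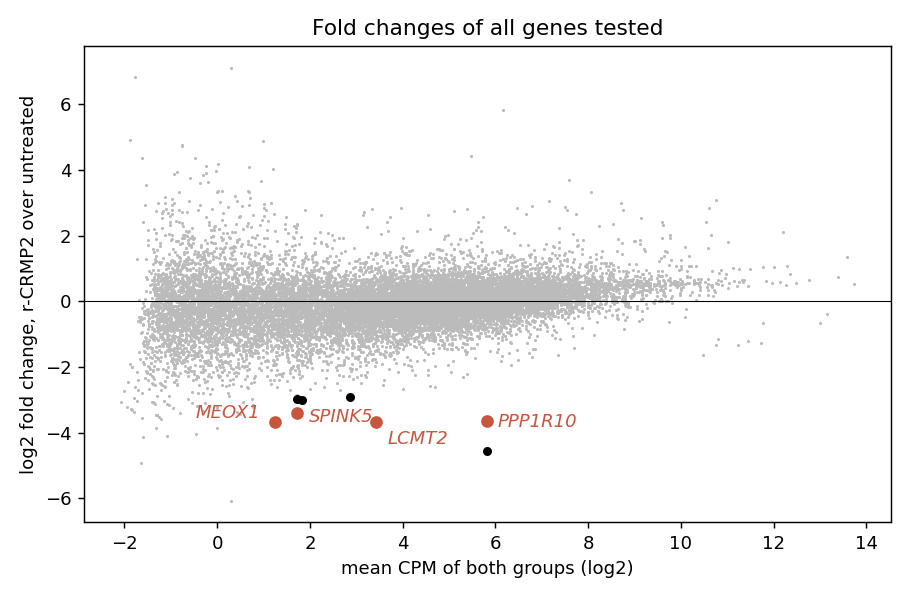
Log2 fold change (r-CRMP2 over untreated) against the log2 of the mean CPM of both groups, for each of the 16222 genes tested in grey. The 4 genes are in red, between -3.67 and -3.40, and black points are EGR1 (-4.55) and the 3 genes that came next, LINC00909, ZNF594 and TIGD5 (-3.01 to -2.91).

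The genes whose values ran closest to each of the 4 over the 6 libraries were mostly the others of the 4. Likeness was measured as the root mean square difference of log2 CPM after centring each gene on its mean, over 12720 other genes with at least 50 normalized counts. For LCMT2 the nearest were SPINK5 (0.21), PPP1R10 (0.22) and MEOX1 (0.45). For PPP1R10 they were LCMT2 (0.22), SPINK5 (0.30) and MEOX1 (0.40). SPINK5 was nearest to LCMT2 (0.21), PPP1R10 (0.30) and CENPBD1 (0.32), a gene with a log2FC of -2.69. MEOX1 was nearest to LINC00909 (0.28), the unnamed gene ENSG00000261317.1 (0.39) and SPINK5 (0.40). All 6 libraries share the contrast, and genes picked for falls of like size had to lie near each other on this measure.

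The gene that overlaps LCMT2 was called lower too, by much less. In the deposited annotation LCMT2 overlaps ADAL, which encodes an adenosine deaminase-like enzyme, by 272 bases at the start of both genes, on opposite strands. ADAL had 621, 629 and 674 counts in untreated replicates 1, 2 and 3 and 373, 391 and 459 in r-CRMP2 replicates 1, 2 and 3. ADAL fell, with 24.2 ± 1.69 CPM in untreated and 19.1 ± 1.40 CPM in r-CRMP2 libraries (log2FC -0.34, SE 0.09, adjusted p = 0.00284). The LCMT2 count was 0.787 to 0.884 of the ADAL count in untreated libraries and 0.0566 to 0.105 of it in r-CRMP2 libraries. The library kit named in the methods does not mark strand, so reads within the overlap cannot be told apart. With both genes counted as 1 unit, the log2 fold change was -1.10 instead of -3.67. That unit holds all ADAL counts, inside and outside the 272 bases, so it cannot show how the overlap bears on LCMT2. In GENCODE release 29 (GRCh38) these genes do not overlap and lie 51 bases apart, the stretch printed above.

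PPP1R10 starts 402 bases from MRPS18B, which encodes a mitochondrial ribosomal protein and runs in the opposite direction. MRPS18B fell, with 108 ± 3.67 CPM in untreated and 96.9 ± 2.49 CPM in r-CRMP2 libraries (log2FC -0.15, SE 0.04, adjusted p = 0.0394), and its adjusted p was over 0.05 in 8 of 12 alternatives. On the other side, ABCF1, a translation factor gene 8.87 kb away, was at a log2FC of -0.14 (adjusted p = 0.0535), which did not pass. ABCF1 passed with library size alone (adjusted p = 5.84e-06), with at least 10 counts in every sample (0.0302) and without untreated replicate 2 (0.0442). The log2 fold changes of MRPS18B and ABCF1 are to be set beside -3.66 for PPP1R10.

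Around LCMT2, ZSCAN29, a zinc-finger gene 27.6 kb away, fell with a log2FC of -0.56 (SE 0.09, adjusted p = 1.83e-05), and CCNDBP1, which encodes a cyclin D1-binding protein 131 kb away, was at 0.04 (adjusted p = 0.776). Next to MEOX1, the ETS factor gene ETV4 (94.0 kb away) rose with a log2FC of 0.33 (adjusted p = 0.0167), a call lost in 5 of 12 alternatives, DESeq2 among them (adjusted p = 0.131). On the other side, the phosphatase gene DUSP3 (104 kb away) was at -0.02 (adjusted p = 0.780). With library size in place of TMM, DUSP3 was at -0.33 (adjusted p = 0.000171) and CCNDBP1 at -0.27 (adjusted p = 0.0426). That setting called 8449 of the 16222 genes tested lower. Next to SPINK5, C5orf46 (157 kb away) rose, with 1.23 ± 0.317 CPM in untreated and 5.27 ± 0.954 CPM in r-CRMP2 libraries (log2FC 2.10, SE 0.26, adjusted p = 1.83e-07). SPINK6, a kallikrein inhibitor of the same family 65.4 kb away, was at 0.07 (SE 0.28, adjusted p = 0.807). Of the 9 neighbours, 3 fell, 2 rose and 4 did not pass, while 30.1% of all genes tested fell and 28.2% rose at the adjusted p-value threshold, 58.2% together. None of the 9 fell past the fold threshold of 1, and 1 rose past both thresholds. Of all genes tested, 8.86% fell and 5.12% rose past both.

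**Figure D3:**
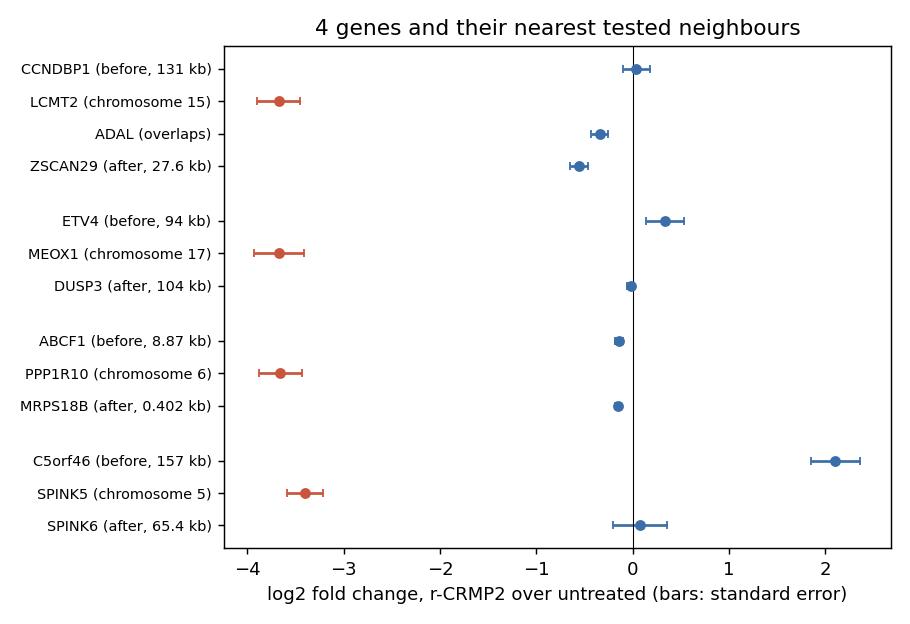
Log2 fold change (r-CRMP2 over untreated) of the 4 genes in red and of the overlapping gene and nearest tested genes on each side in blue, with the distance to each. Bars are standard errors. The 4 genes lie between -3.67 and -3.40, and their neighbours lie between -0.56 (ZSCAN29) and 2.10 (C5orf46).

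None of the partners of PNUTS fell past the fold threshold, and of all genes tested 8.86% fell past both thresholds. Of 9 genes of the PNUTS complex and of nuclear phosphatase 1, all tested, 3 fell, 4 rose and 2 did not pass, and the median log2 fold change was 0.15, against -0.03 over all genes tested. Background shares were 30.1% falling and 28.2% rising, as above. WDR82, a subunit of the complex, fell, with 67.6 ± 3.88 CPM in untreated and 55.0 ± 1.66 CPM in r-CRMP2 libraries (log2FC -0.30, SE 0.05, adjusted p = 0.000851). TOX4, the other subunit, was at 0.15 (adjusted p = 0.0633). Of the catalytic subunits, PPP1CC rose, with 326 ± 7.80 CPM in untreated and 456 ± 30.6 CPM in r-CRMP2 libraries (log2FC 0.48, adjusted p = 2.54e-06), and PPP1CB rose by 0.40 (adjusted p = 8.76e-06). PPP1CA was at -0.06 (adjusted p = 0.435). PPP1R8 (NIPP1) and PPP1R7 (SDS22), other nuclear regulators of the phosphatase, fell with log2FCs of -0.49 (adjusted p = 2.96e-05) and -0.30 (adjusted p = 0.00691), the call of PPP1R7 being lost without untreated replicate 2, and the inhibitor PPP1R11 rose by 0.42 (adjusted p = 5.83e-05). With library size in place of TMM, 1 of the 9 rose and 4 fell. That setting called 2171 of all 16222 genes tested higher and 8449 lower.

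PNUTS acts at transcription termination, and a list of 18 genes of cleavage, polyadenylation and termination was followed for that reason. All 18 were tested: 10 fell and 2 rose, while 30.1% and 28.2% of all genes tested did so. The other 6 did not pass, and the median log2FC was -0.26. None of the 18 passed the fold threshold, while 8.86% of all genes tested fell and 5.12% rose past both thresholds. WDR33, which reads the polyadenylation signal, fell, with 49.9 ± 1.45 CPM in untreated and 30.6 ± 3.34 CPM in r-CRMP2 libraries (log2FC -0.71, SE 0.09, adjusted p = 4.13e-07). The cleavage endonuclease gene CPSF3 fell, with 45.5 ± 1.98 CPM in untreated and 29.8 ± 1.56 CPM in r-CRMP2 libraries (log2FC -0.61, adjusted p = 9.48e-07). CLP1, CSTF2, CPSF4 and CSTF3 fell with log2FCs between -0.55 and -0.51 (adjusted p from 9.35e-06 to 0.00411). The exonuclease gene XRN2 was at 0.06 (adjusted p = 0.455), and CSTF1 and SUPT5H, which encodes a substrate of the PNUTS phosphatase, rose by 0.30 and 0.15 (adjusted p = 0.00105 and 0.0485), and the call of SUPT5H was lost in 8 of 12 alternatives. With library size in place of TMM, 17 of the 18 fell and 0 rose. That setting called 8449 of all 16222 genes tested lower and 2171 higher.

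Of 10 genes of wybutosine synthesis and of the related carboxyl methylation of phosphatase 2A, all tested, 2 fell and 3 rose, shares near the 30.1% and 28.2% of all genes tested. The other 5 did not pass, and the median log2FC was 0.08. TRMT12 (TYW2), which adds the side chain that LCMT2 later methylates, fell, with 11.2 ± 1.38 CPM in untreated and 5.65 ± 0.999 CPM in r-CRMP2 libraries (log2FC -0.99, SE 0.17, adjusted p = 8.40e-06). TRMT5, which makes the first methylated guanosine, fell with a log2FC of -0.34 (SE 0.21, adjusted p = 0.0487), a call lost in 6 of 12 alternatives. TYW1, TYW3 and TYW5, the other steps, were at -0.04, -0.18 and -0.36 (adjusted p = 0.796, 0.108 and 0.0868). TYW1B, a near copy of TYW1 with which it may share reads, was at 0.25 (adjusted p = 0.575). LCMT1, the paralog that methylates phosphatase 2A, was at 0.20 (adjusted p = 0.0654), and PPME1, which removes that methyl group, rose, with 73.3 ± 2.51 CPM in untreated and 109 ± 2.51 CPM in r-CRMP2 libraries (log2FC 0.57, SE 0.03, adjusted p = 1.96e-07). The catalytic subunit genes PPP2CA and PPP2CB rose by 0.24 and 0.23 (adjusted p = 0.00633 and 0.0284), but were at -0.07 and -0.08 with library size in place of TMM. The call of PPP2CB was also lost without untreated replicate 1 (adjusted p = 0.0609), untreated replicate 2 (0.106) or r-CRMP2 replicate 2 (0.135), and that of PPP2CA without untreated replicate 2 (0.0572).

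Of 15 somite regulators listed beside MEOX1, 8 passed the low-count filter. Of these 3 fell and 1 rose, against 30.1% and 28.2% of all genes tested, and 4 did not pass, with a median log2FC of -0.29. MEOX2, its only close paralog, had 8 counts over the 6 libraries together, and PAX1, PAX3 and PAX7 had 8 or 9 each. TBX18 fell, with 28.2 ± 4.51 CPM in untreated and 18.2 ± 2.53 CPM in r-CRMP2 libraries (log2FC -0.63, SE 0.18, adjusted p = 0.000108). PAX9 fell with a log2FC of -0.55 (adjusted p = 0.0226), a call lost in 4 of 12 alternatives. The forkhead gene FOXC2 rose, with 32.0 ± 1.36 CPM in untreated and 67.3 ± 7.78 CPM in r-CRMP2 libraries (log2FC 1.07, SE 0.10, adjusted p = 2.09e-09).

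The kallikreins that LEKTI is known to inhibit were barely counted. KLK5 and KLK7 had 4 counts each over the 6 libraries together and KLK14 had 13, and none of the 15 kallikrein genes passed the low-count filter. SPINK2, SPINK9 and SPINK14 had 0 counts in all libraries, which leaves room for a very low level. Of 29 genes of the SPINK and kallikrein list, 8 were tested: 1 fell and 2 rose, against 30.1% and 28.2% of all genes tested, and 5 did not pass, with a median log2FC of 0.05. The membrane protease genes differed: PRSS8, which encodes prostasin, rose, with 2.74 ± 1.11 CPM in untreated and 10.4 ± 0.690 CPM in r-CRMP2 libraries (log2FC 1.92, SE 0.32, adjusted p = 9.21e-08), and ST14, which encodes matriptase, fell, with 4.87 ± 1.01 CPM in untreated and 2.84 ± 0.429 CPM in r-CRMP2 libraries (log2FC -0.78, adjusted p = 0.00197). F2RL1, the protease-activated receptor of this pathway, rose by 0.64 (adjusted p = 1.62e-06). Of the inhibitors, SPINK4, SPINK13, SPINT1 and SPINT2 had log2FCs of 0.32, -0.52, -0.04 and 0.02 and did not pass.

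SPINK5 is an epidermal gene, and 5 of 14 keratinocyte differentiation markers passed the low-count filter. Of these 1 fell and 2 rose, against 30.1% and 28.2% of all genes tested, and 2 did not pass, with a median log2FC of -0.33. The caspase gene CASP14 rose, with 12.5 ± 1.19 CPM in untreated and 51.0 ± 1.85 CPM in r-CRMP2 libraries (log2FC 2.03, SE 0.08, adjusted p = 6.98e-13). TGM1, which encodes an envelope transglutaminase, fell with a log2FC of -1.09 (SE 0.44, adjusted p = 0.0187), which did not pass without untreated replicate 1 (adjusted p = 0.129) or without r-CRMP2 replicate 2 (adjusted p = 0.0824). KRT10 rose by 0.31 (adjusted p = 0.000726), but was at -0.0038 with library size in place of TMM. KRT1, KRT5, KRT14, DSG1 and LOR had between 3 and 20 counts over all 6 libraries. The summed level of the list was 56.8 to 59.2 CPM in untreated and 103 to 109 CPM in r-CRMP2 libraries, nearly all of it KRT10 (41.4 and 51.2 CPM on average) and CASP14.

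**Figure D4:**
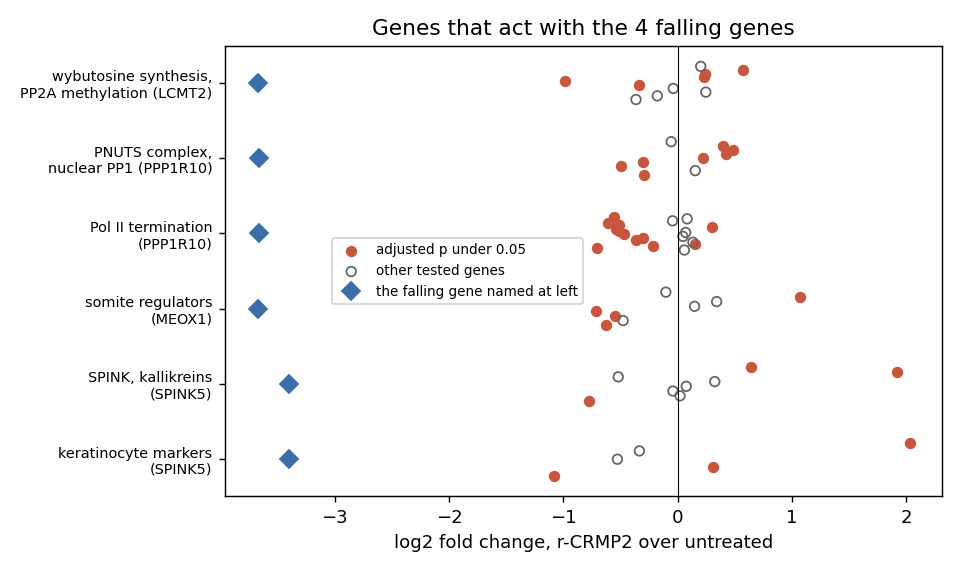
Log2 fold change (r-CRMP2 over untreated) of the tested genes of the 6 lists, with filled red circles for an adjusted p-value under 0.05 and open circles for the rest. Blue diamonds are the falling genes themselves, at -3.67 to -3.40. No other gene of these lists lies below -1.09 (TGM1).

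The libraries carried the keratins of an epithelial line, with KRT8 at 1266 and 1293 CPM on average in untreated and r-CRMP2 libraries and KRT18 at 1251 and 1435 CPM. PAX8 (4.06 and 3.74 CPM on average in untreated and r-CRMP2 libraries), MUC16 and EPCAM were also read, while the ovarian marker WT1 had 7 and CDH1 16 counts over all libraries. Of 8 ovarian and epithelial markers 6 were tested. Of these 2 fell and 1 rose, against 30.1% and 28.2% of all genes tested, and 3 did not pass. KRT7 fell from 665 to 573 CPM on average (log2FC -0.21, adjusted p = 0.00920), and MUC16 fell too (log2FC -0.36, adjusted p = 0.0133). KRT18 rose (log2FC 0.20, adjusted p = 0.0110). The calls of KRT7, MUC16 and KRT18 were lost in 2, 2 and 3 of 12 alternatives. Of 10 fibroblast markers 9 were tested, with a median log2FC of 0.21. Of these 3 fell and 3 rose, against 30.1% and 28.2% of all genes tested, and 3 did not pass. The 10 fibroblast markers summed to 554 to 631 CPM in untreated and 477 to 497 CPM in r-CRMP2 libraries. Most of this was COL1A1, which fell from 419 to 316 CPM on average (log2FC -0.41, adjusted p = 3.81e-05). PDGFRB and POSTN fell too (log2FC -0.41 and -0.59), whereas COL1A2, PDGFRA and LUM rose (0.35, 0.46 and 0.53). The calls of COL1A2, PDGFRA and LUM were lost in 1, 1 and 6 of 12 alternatives. Leukocyte markers summed to 23.7 to 28.1 and 73.8 to 80.5 CPM, mostly CD68, which rose from 23.1 to 74.3 CPM on average (log2FC 1.69), with 11 counts of PTPRC and 4 of CD3E over all libraries. The 4 endothelial markers summed to 6.48 to 7.05 CPM in untreated and 1.82 to 2.35 CPM in r-CRMP2 libraries, mainly CDH5, which fell (log2FC -1.96, adjusted p = 8.48e-08). The part of these changes in the 4 falls was not tested.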

How the data were processed

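RNA was sequenced by the study as polyadenylated, paired-end libraries (NEBNext Ultra kit, which does not mark strand). The submitters' processing notes name FastQC, HISAT2, DESeq2 and hg19. The counting tool and annotation are not given in the sources used here. The authors deposited raw counts per gene and TPM values for each sample. The TPM values differed by at most 4.72e-06 from the counts divided by the deposited length and rescaled.

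The main test was the quasi-likelihood F-test of edgeR (version 4.0.16, R 4.3.3), run on 16222 genes after TMM normalization and filterByExpr, with Benjamini-Hochberg adjustment over all of them. Calls used an adjusted p-value under 0.05, with a log2 fold change of 1 where stated. Standard errors came from log2 CPM with a prior count of 2, which is larger than the one in the fit that gave the fold changes. DESeq2 1.42.0 was an alternative. The scripts were checked on simulated counts. The TMM factors were 1.10 to 1.12 in untreated and 0.878 to 0.922 in r-CRMP2 libraries, and library size alone moved the median log2 fold change of all genes from -0.03 to -0.34. Counting errors are the square root of the count and cover counting only.

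The members and gene lists were chosen with earlier results of these data known. Named genes are the 4 genes, up to 6 called genes a list with the largest changes, overlapping and nearest tested genes, the 3 genes of most like pattern and the 3 that came next under the selection rule. Other genes of the lists were named after their values were seen. The values of 1 somite regulator are not reported here. Transcripts of the 4 genes (GENCODE release 29) were searched against all others, and no other gene matched over 100 bases at 95% identity. For LCMT2 the best match of that length had 93.5% identity. Promoter sequences are from RefSeq (GRCh38.p14), which matched 3 of the 4 genes and was not used for MEOX1.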

Additional observations from a re-analysis of the deposited data

How the results depend on the processing

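The falls of the 4 genes kept their direction in every alternative that gave a value. Their choice from these same libraries, for large falls without overlap, left little room for another outcome. With 1 library left out, the log2 fold change ranged from -3.79 to -3.47 for LCMT2, -4.02 to -3.50 for MEOX1, -3.91 to -3.54 for PPP1R10 and -3.51 to -3.23 for SPINK5. With library size alone LCMT2, MEOX1, PPP1R10 and SPINK5 were at -3.98, -3.98, -3.97 and -3.71. With a prior count of 2 in the fit, as in the standard errors, they were at -3.61, -3.40, -3.65 and -3.23. LCMT2 summed with all ADAL counts, inside and outside the overlap, was at -1.10. MEOX1 gave no value with at least 10 counts in every sample. The other 3 genes overlap no gene, so no sum was made. The fit with a replicate block gave -3.67, -3.68, -3.67 and -3.40 for LCMT2, MEOX1, PPP1R10 and SPINK5. Deviations of same-numbered libraries correlated across genes at -0.02, 0.0038 and -0.03. Counting noise enters these values, so they cannot show whether same-numbered samples were prepared together.

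With library size alone, genes past both thresholds went from 1437 lower and 831 higher to 2553 and 489, and at the adjusted p-value alone from 4875 and 4574 to 8449 and 2171. With at least 10 counts in every sample 946 were lower. Leaving out 1 library gave 1386 to 1621 and 803 to 927.

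In the lists, library size alone gave 5 lower and 1 higher for wybutosine and carboxyl methylation, 1 higher for the PNUTS complex, 17 lower and 0 higher for termination, 5 lower for somite regulators and 1 higher for keratinocyte markers. Over all 16222 genes tested, library size alone called 8449 lower and 2171 higher. RLE size factors and DESeq2 each gave 1 lower in the wybutosine list. The termination list had 1 higher without a low-count filter, with at least 10 counts in every sample and with the replicate block. The keratinocyte list had 0 lower with at least 10 counts in every sample. Leaving out 1 library gave 1 to 3 lower and 1 to 4 higher for wybutosine, 1 to 3 higher for termination and 0 to 1 lower for keratinocyte markers. The causes were not tested.

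With library size alone, PPP2CA (-0.071), PPP2CB (-0.084), KRT10 (-0.0038), CCNDBP1 (-0.27) and SPINK6 (-0.24) changed sign. Leaving out 1 library gave -0.022 to 0.17 for CCNDBP1, -0.060 to 0.0070 for DUSP3 and -0.10 to 0.28 for SPINK6. Low counts limit MEOX1 and SPINK5, which had 22 and 36 counts in the r-CRMP2 group.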
